A study of Homo sapiens with 42 samples.

Results

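nc886, listed under the symbol VTRNA2-1, is a short non-coding RNA made by RNA polymerase III (Pol III). It was taken as the row of the count table whose gene symbol is VTRNA2-1, and it is 1 row of the 175946 deposited, or of the 85650 kept so that no kept row overlaps another. It was chosen by its measured counts in these libraries, which earlier results of these data showed to differ among the groups, so its levels by group are a description and carry no test. The small RNA libraries come from A7, A4, E4 and G8, which the labels give as THP-1 cells (a human monocytic leukaemia line), and from mock, which they give as HEK293T cells (a human embryonic kidney line) that received 200 nM of a control antisense oligonucleotide. The study's design text speaks of knockouts of POLR3G and of POLR3GL in THP-1, but the labels do not say which gene was targeted in A7, A4, E4 or G8, nor whether each is 1 clone. Each group has 3 libraries made after phosphatase and polynucleotide kinase treatment (with PNK) and 3 made without it, 30 libraries in all. The other 12 described samples, labelled con or given an oligonucleotide against POLR3G, are not analysed here. Nothing in the labels says whether the libraries of a group come from separate cultures, so their spread may be technical.

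Pol III makes tRNA, Y RNA, vault RNA and other short structured RNAs, and POLR3G and POLR3GL are alternative versions of one of its subunits. nc886 resembles the vault RNAs, small RNAs of the vault ribonucleoprotein particle, and was at one time catalogued as a miRNA precursor, but it is best known as a ligand that holds the antiviral kinase PKR inactive. Its promoter lies in a differentially methylated region, and many tumour lines silence it. A primary Pol III transcript starts with a triphosphate, and the ligation used for small RNA libraries needs a monophosphate at the first base and a free hydroxyl at the last, which the phosphatase and kinase treatment can restore.

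The row of nc886 lies at chr5:136080497-136080597 (GRCh38, minus strand) and is 101 bases long. GENCODE annotates a longer gene of the vault RNA type there, 128 bases from 136080470 to 136080597, and no other row of the table overlaps it on either strand. The nearest kept rows were HSALNG0045075, 15.9 kb away with 0 to 42 counts per library, and lnc-SMAD5-5, 48.8 kb away with 0 counts in each library. The row over the pseudogene VTRNA2-2P on chromosome 2, which is 77.7% identical to nc886, held 6 counts over the 30 libraries. The 4 vault RNA sequences are printed because the results turn on how nc886 parts from its paralogs. They run 5′ to 3′ on the transcript strand as DNA, taken from the GENCODE transcripts of GRCh38 over the rows' coordinates, and the capitals mark the A box and then the core of the B box, the internal promoter elements by which Pol III genes of this class are recognised.
VTRNA2-1 (nc886): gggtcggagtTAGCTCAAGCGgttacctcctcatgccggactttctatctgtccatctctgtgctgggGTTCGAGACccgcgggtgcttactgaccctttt
VTRNA1-1: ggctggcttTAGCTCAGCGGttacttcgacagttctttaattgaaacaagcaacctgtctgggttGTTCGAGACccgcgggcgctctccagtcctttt
VTRNA1-2: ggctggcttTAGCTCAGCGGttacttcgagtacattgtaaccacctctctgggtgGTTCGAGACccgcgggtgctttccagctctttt
VTRNA1-3: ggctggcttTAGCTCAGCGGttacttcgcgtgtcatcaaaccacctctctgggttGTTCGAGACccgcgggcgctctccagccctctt
VTRNA1-1 is at chr5:140711276-140711373, VTRNA1-2 at chr5:140718926-140719013 and VTRNA1-3 at chr5:140726159-140726246, all on the plus strand. nc886 was 68.8% identical to VTRNA1-1, 69.6% to VTRNA1-2 and 69.2% to VTRNA1-3, while those RNAs were 81.6% to 87.6% identical to one another. The B box core GTTCGANNC, a form chosen after the sequences were seen, occurred in all 4 and, on either strand, in 0.314% of the 4144 GENCODE transcripts of 88 to 128 bases. With a G before it and a C after it, the full B box consensus, which overlaps the core by design, occurred in nc886 and VTRNA1-2 and in 0.0724% of those transcripts. An A box occurred in all 4 and in 32.8% of them. A run of TTTT, the Pol III terminator, closed nc886, VTRNA1-1 and VTRNA1-2 but not VTRNA1-3. Anywhere and on either strand, TTTT occurred in 65.3% of those transcripts, which is not a background for a closing run. Neither the cyclic AMP response element TGACGTCA nor TATAA was found inside the 4 rows on either strand, against 0 and 466 of the 4144 transcripts.

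The kept rows summed to 5545463 to 7871873 counts per library with PNK and 9652572 to 13270626 without. Without PNK, G8 libraries 1 and 2 held 2.02% and 2.06% miRNA, against 13.0% to 26.1% in the other 13 libraries, so each G8 value without PNK carries that split. With PNK they held 0.232% and 0.198%, against 0.487% or more in the others. Library 3 also stood apart without PNK: the chi-square per feature was 28.0 to 366 between libraries 1 and 2 of a group and 176 to 1674 between either of them and library 3. CPM is the count scaled to a common library size by TMM within an arm. Without PNK the blood cell miRNA list (MIR142, MIR223, MIR155, MIR150 and MIR146A) summed to 8152 to 9838 CPM in A7, 5493 to 7523 CPM in A4, 7401 to 8387 CPM in E4 and 912 to 6667 CPM in G8, and to 5163 to 7391 CPM in the libraries labelled mock. MIR150 was at 0 in A7, G8 and the libraries labelled mock and had at most 1 count in any A4 or E4 library, while MIR142 alone stood at 2149 to 3100 CPM in A7 and 1744 to 3240 CPM in the libraries labelled mock. The epithelial list (MIR200A, MIR200B, MIR200C, MIR141, MIR429 and MIR205) summed to 53.2 to 65.5 CPM in A7, 20.7 to 26.7 in A4, 50 to 54.5 in E4, 5.15 to 34.8 in G8 and 28.7 to 41.4 in the libraries labelled mock. With PNK the blood list summed to 293 to 558 CPM in A7, 177 to 316 CPM in A4, 351 to 400 CPM in E4 and 39.9 to 131 CPM in G8, and to 81.8 to 83.5 CPM in the libraries labelled mock. Without PNK the sums in the libraries labelled mock thus lay within the range of the THP-1 groups for both lists, and every comparison with them is written as one with the libraries labelled mock.

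By group mean under TMM scaling, nc886 was highest in A7 among the THP-1 groups in both arms, by a wider margin without end repair; with miRNA factors G8 was higher than A7 with PNK. Relative to the mean of A4, E4 and G8 on the log2 scale, its level in A7 was 1.56-fold higher with PNK and 4.46-fold higher without. The libraries labelled mock lay near A7 without PNK and spread across the range of all groups with it. With PNK, nc886 stood at 10334, 8438 and 6621 CPM in A7 libraries 1, 2 and 3 (8464 ± 1856, mean ± SD, n = 3). It stood at 4384, 3972 and 6045 CPM in A4 (4800 ± 1097), 6960, 5739 and 7718 CPM in E4 (6806 ± 999) and 5711, 6263 and 3059 CPM in G8 (5011 ± 1713). The libraries labelled mock gave 12252, 4296 and 3722 CPM. With PNK all 3 A7 libraries were above those of A4 and those of G8, but A7 library 3 lay below E4 libraries 1 and 3, and mock library 1 was above every other library. How many of all features separate A7 from A4 or from G8 alone was not computed.

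Without PNK the order was sharper. nc886 stood at 1297, 756 and 613 CPM in A7 libraries 1, 2 and 3 (888 ± 361, n = 3). A4 gave 158, 164 and 205 CPM (176 ± 26), E4 150, 143 and 173 CPM (155 ± 15.8) and G8 331, 309 and 153 CPM. Mock gave 927, 518 and 423 CPM. All 3 A7 libraries and all 3 mock libraries lay above all 9 of A4, E4 and G8, and A7 and mock overlapped each other. Such a separation of A7 from the 9 libraries was met by 3.47% of 1842 features without PNK and by 1.32% of 9228 features with PNK, where nc886 did not meet it, and that of A7 and mock together by 1.52% without PNK and 0.173% with PNK.

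**Figure D1:**
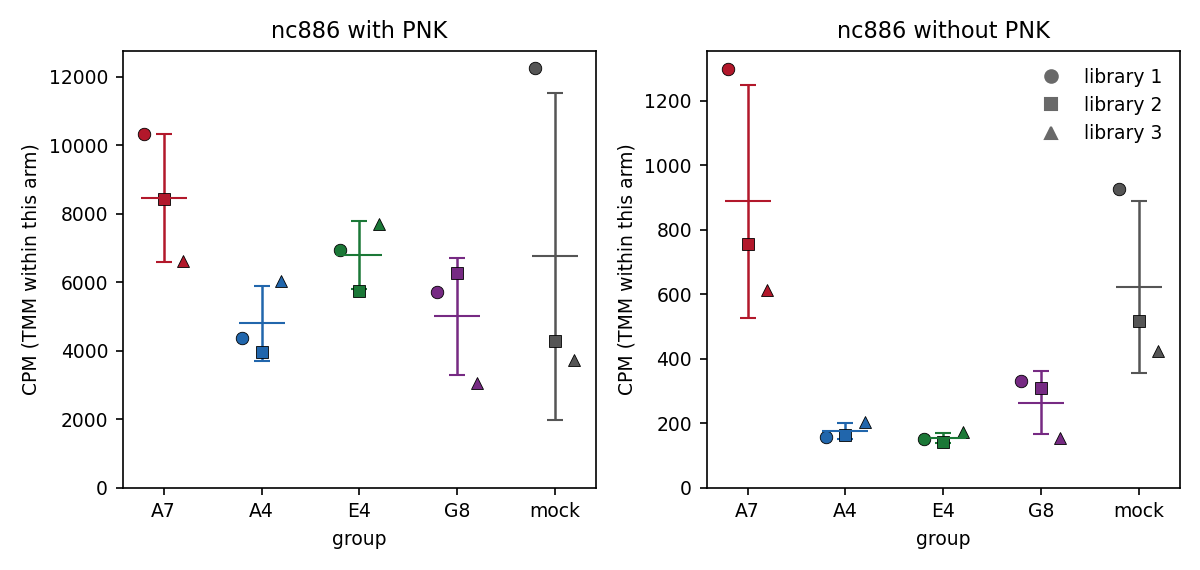
nc886 in CPM (TMM within each arm, linear axes from 0 with a different scale in each panel) for each library by group, with PNK on the left and without PNK on the right. Horizontal bars are means and vertical bars the SD of 3 libraries; without PNK the A7 and mock libraries all sit above those of A4, E4 and G8.

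The counts behind these levels leave little counting error. With PNK, nc886 had 46833 to 64778 counts in A7, 18796 to 32263 in A4, 37513 to 49058 in E4, 23740 to 29824 in G8 and 26727 to 76374 in the libraries labelled mock. Without PNK it had 17787, 9947 and 8778 counts in A7, 1759 to 2188 in A4, 1633 to 1890 in E4, 1546 to 2379 in G8 and 4284 to 9725 in the libraries labelled mock. The counting error of a single library was at most 2.54% of its count, well below the SD between libraries. Ranked by counts per base among the features that passed the filter on low counts, nc886 was between 12th and 36th with PNK, with a median of 25, and between 112th and 319th without, with a median of 215.

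Without PNK, the descending order of mean log2 level was A7, mock, G8, A4 and E4. The libraries of A7 and mock overlapped, with a difference of 0.52 beside a pooled SD within groups of 0.47. Same-numbered libraries of A7 and mock deviate together without PNK, though the labels do not call them pairs. Matched by number, A7 was higher by 0.48, 0.55 and 0.53 without PNK. With PNK the values were -0.25, 0.97 and 0.83. Both sets are a description with no test. Neighbours further down also overlapped: G8 exceeded A4 by 0.52 and A4 exceeded E4 by 0.17. The differences without overlap were A7 minus A4 at 2.27, A7 minus E4 at 2.44, A7 minus G8 at 1.75, A4 minus mock at -1.75, E4 minus mock at -1.92 and G8 minus mock at -1.23, the last of which turned to 0.22 with scaling factors taken from miRNA alone. The step between mock and G8 is thus the only one in that order that the libraries do not bridge. The share of all features that separate in this way was not computed for single pairs of groups. The A7 minus G8 difference shrank to 0.29 with miRNA factors and grew to 2.65 with library totals and 2.46 without G8 libraries 1 and 2, while A7 minus the mean of A4, E4 and G8 (2.16) ran from 1.55 with miRNA factors to 2.66 with library totals. Among 1842 features this last difference of nc886 was the highest, and by absolute size it was the 6th.

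With PNK the order was A7, E4, mock, G8 and A4, within a narrower span. A7 exceeded E4 by 0.30 on the log2 scale with overlap, the libraries labelled mock by 0.52 with overlap, A4 by 0.82 without overlap and G8 by 0.80 without overlap, beside a pooled SD of 0.54. For these pairs, too, the share of all features that separate was not computed. Without G8 libraries 1 and 2, A7 minus G8 was 1.44 and E4 minus G8, at 0.50 with all libraries, was 1.14. The A7 minus G8 value turned to -0.48 with miRNA factors, and A7 minus mock turned to -0.52 with them. A4, E4 and G8 each overlapped the libraries labelled mock and one another. The A7 minus mean difference of 0.64 ranked 533rd from the highest of 9228 features, and it ran from 0.13, by miRNA factors, to 0.85, when G8 libraries 1 and 2 were left out, or 0.48 to 0.81 over single libraries left out.

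The tRNA share without PNK was, like nc886, higher in A7 than in A4, E4 and G8, though E4 had a higher tRNA share than A4 and the lower mean nc886. Without PNK tRNA rows took 4.86%, 3.95% and 2.81% of counts in A7 libraries 1, 2 and 3, against 2.10% to 2.15% in A4, 2.38% to 2.66% in E4, 1.16% to 2.34% in G8 and 4.80%, 2.93% and 2.45% in the libraries labelled mock. Both the tRNA share and nc886 were highest in library 1 of A7 and of mock and lowest in library 3. The miRNA share without PNK was also higher in A7, at 20.6% to 26.1% of counts, than in the other THP-1 groups. It was 13.0% to 16.4% in A4, 18.7% to 20.2% in E4 and 2.02% to 19.1% in G8. In the libraries labelled mock it was 14.4% to 19.2%, below A7. Its order of libraries differed in part. It was highest in library 2, not 1, of A7 (26.1%) and of mock (19.2%), and lowest in library 3 of each. With PNK the tRNA share was 15.8% to 18.2% in A7, 12.8% to 13.9% in A4, 15.7% to 16.4% in E4, 10.3% to 12.5% in G8 and 12.7% to 18.0% in the libraries labelled mock. The part of these shares in the level of nc886 was not tested. In bulk RNA of this kind, fewer expressing cells and less RNA per cell cannot be told apart.

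A ratio taken within a library needs no scaling between libraries. Of the counts on the 4 vault RNAs with PNK, nc886 held 89.5% to 91.9% in A7, 89.1% to 90.5% in A4, 89.6% to 90.2% in E4, 83.1% to 89.2% in G8 and 90.0% to 93.3% in the libraries labelled mock. These shares lie near their ceiling, and the per-base ratio to VTRNA1-1 spreads the same libraries further apart. Without PNK nc886 held 88.4%, 85.2% and 81.2% in A7, against 49.5%, 48.9% and 59.6% in A4, 52.8%, 51.9% and 55.8% in E4 and 70.2%, 64.9% and 60.8% in G8. Mock libraries held 87.5%, 82.0% and 77.3%. The 95% interval (exact binomial) of the lowest A7 share without PNK ran from 80.4% to 81.9% and that of the highest share among A4, E4 and G8 from 68.6% to 71.8%, covering counting error only.

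**Figure D2:**
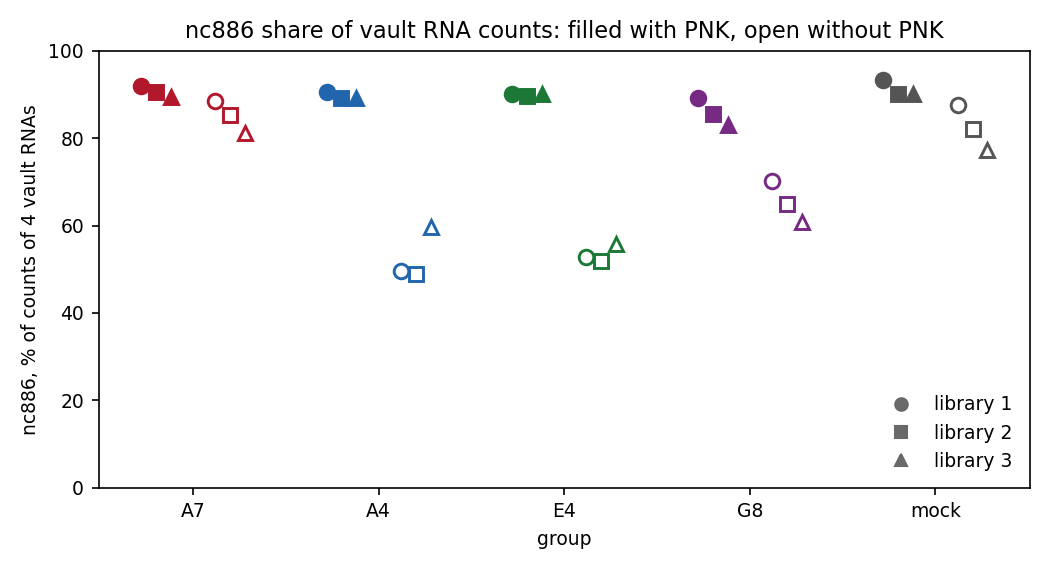
Share of nc886 in the summed counts of nc886, VTRNA1-1, VTRNA1-2 and VTRNA1-3, in percent, for each library by group, with filled symbols for libraries with PNK and open symbols for libraries without. The filled symbols lie between 83.1% and 93.3%, whereas the open ones fall to 48.9% in A4 and stay at 81.2% or above in A7.

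VTRNA1-1, which binds the autophagy receptor p62, is the most abundant of the paralogs. Per base, nc886 outnumbered VTRNA1-1 by 8.47 to 11.3 times in A7 with PNK, by 8.38 to 9.53 times in A4, 8.67 to 9.22 times in E4, 4.95 to 8.27 times in G8 and 8.90 to 13.9 times in the libraries labelled mock. Without PNK the ratio was 7.84, 5.93 and 4.46 in A7, against A4 with 1.02, 0.989 and 1.56, E4 with 1.15, 1.14 and 1.32 and G8 with 2.51, 1.98 and 1.68. In mock it was 7.20, 4.76 and 3.57. nc886 and VTRNA1-1 were therefore near parity per base in A4 and E4 without end repair, and nc886 led in A7 and mock. VTRNA1-1 itself stood at 124 to 160 CPM in A7, 128 to 161 in A4, 121 to 127 in E4, 88.2 to 151 in G8 and 105 to 125 in the libraries labelled mock without PNK. That level depends on the scaling. Across the THP-1 groups without PNK, edgeR gave VTRNA1-1 an adjusted p of 0.502 with TMM. It gave 0.0248 with library totals and 0.0383 with miRNA factors. The ratio alone does not show which of the RNAs differed. The difference of A7 from the mean of A4, E4 and G8 in this ratio, 2.07 on the log2 scale without PNK and 0.30 with PNK, is close in the first case to the 2.16 found with TMM scaling.

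End repair was then compared within each group. The share of all kept counts held by nc886 was 8.31 ± 2.38 times as high with PNK as without in A7, 23.3 ± 3.52 times in A4, 39.7 ± 1.37 times in E4, 25.9 ± 5.73 times in G8 and 11.5 ± 1.67 times in the libraries labelled mock (mean ± SD over 3 same-numbered pairs of libraries). Residuals of same-numbered libraries correlated between the arms in A4, E4 and G8. They did not in all 3 pairs of A7 (r of -0.01, 0.22 and 0.24) or of mock (-0.16, 0.26 and 0.15). Pairs of A7 and mock are thus matched by number alone. The A7 pairs ran from 5.70 to 10.4 and those of mock from 9.94 to 13.3, while no pair of A4, E4 or G8 fell below 19.6. The shares are relative to each arm's own total, and rRNA held 43.0% to 65.7% of counts with PNK against 3.18% to 10.7% without, while snoRNA held 7.16% to 22.3% against 63.0% to 92.6%. For VTRNA1-1 the same fold was 4.98 ± 0.892 in A7, 3.18 ± 1.09 in A4, 5.29 ± 0.418 in E4, 8.53 ± 2.21 in G8 and 5.54 ± 1.22 in the libraries labelled mock. The folds of VTRNA1-1 were thus below those of nc886 in every group. For VTRNA1-2 the group means ran from 2.79 to 4.13. For VTRNA1-3, with only 1 to 70 counts per library with PNK, they ran from 0.25 to 1.08.

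**Figure D3:**
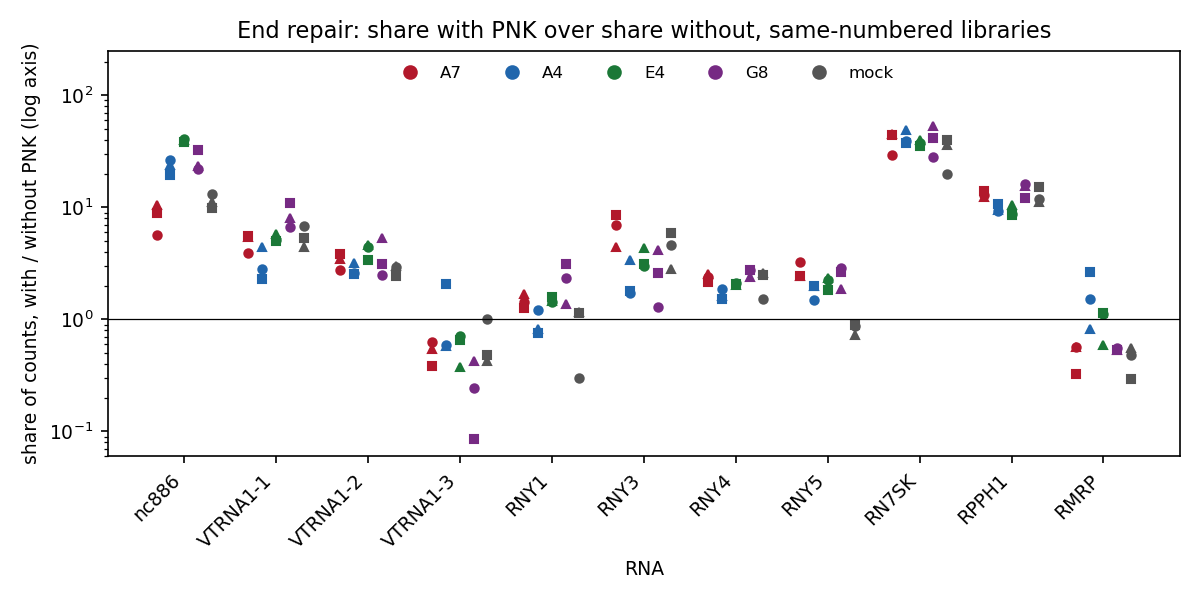
Share of all kept counts with PNK divided by the share without, on a log axis, for nc886 and 10 other Pol III RNAs, with 1 point for each same-numbered pair of libraries, coloured by group (circle, square and triangle are pairs 1, 2 and 3). nc886 runs from 5.70 to 40.8, with A7 and mock lowest, and RN7SK, at 20 to 53.6, shows no such order.

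Ratios of nc886 to 10 other Pol III RNAs of the same library are given as log2 of counts per base in 15 libraries with PNK and 15 without. They rest on the counts by which nc886 was chosen, so they are a description with no test, and all share nc886 as the numerator. The mean ratio was higher with PNK for 9 of the 10 partners and lower for 1. Against the vault RNAs, the shift with PNK minus without was 1.84 for VTRNA1-1 (mean log2 ratio 3.12 with PNK and 1.28 without), 2.51 for VTRNA1-2 (8.20 with PNK and 5.68 without) and 5.12 for VTRNA1-3 (11.17 with PNK and 6.05 without). Each was higher with PNK in 15 of 15 same-numbered pairs, with an SD over pairs of 0.97, 0.83 and 1.34 in that order of genes. Here, too, pairs of A7 and of mock are matched by number alone.

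Y RNAs, which bind the Ro60 protein and act in the start of DNA replication, gave like shifts. The shift was 3.88 for RNY1 (1.81 with PNK and -2.07 without) and 3.33 for RNY5 (3.30 with PNK and -0.03 without). It was 3.10 for RNY4 (0.60 with PNK and -2.51 without) and 2.42 for RNY3 (2.40 with PNK and -0.02 without), with an SD over pairs of 0.99 to 1.46 for these RNAs. The RNY3 ratio was higher with PNK in 14 of 15 pairs and the other 3 in 15 of 15. RMRP, the RNA of the RNase MRP enzyme that works on precursor rRNA, gave 4.76 (6.32 with PNK and 1.56 without), a larger shift than that of any partner but VTRNA1-3, in 15 of 15 pairs.

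RN7SK, the RNA that holds the elongation factor P-TEFb inactive, was the partner with a lower ratio. The shift was -1.02 (1.77 with PNK and 2.79 without, SD over pairs 0.89, lower with PNK in 13 of 15 pairs). RPPH1, the RNA of RNase P, which trims tRNA precursors, gave 0.66 (5.21 with PNK and 4.55 without, SD over pairs 1.08, higher in 11 of 15 pairs), the smallest shift. Without A7 that shift was 1.01, and without mock it was 0.87. For VTRNA1-1 the shift was 0.71 in A7, 2.92 in A4, 2.91 in E4, 1.61 in G8 and 1.06 in the libraries labelled mock. For RNY3 it was 0.33 in A7, 3.40 in A4, 3.54 in E4, 3.42 in G8 and 1.42 in the libraries labelled mock. A7 had the lowest shift of the 5 groups for 9 of the 10 partners, RMRP being the exception at 4.08 in A7 and 3.96 in A4; these differences between groups were not tested.

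**Figure D4:**
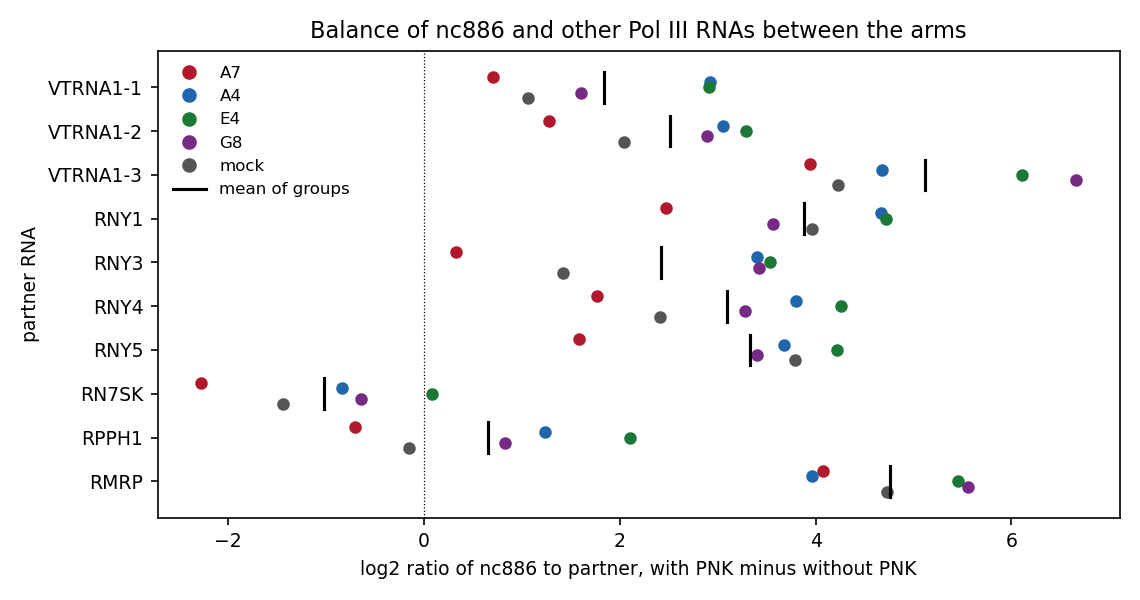
Shift of the log2 ratio of nc886 to each of 10 partner RNAs (counts per base), with PNK minus without PNK, for each group (points, mean of 3 libraries per arm) and averaged over the 5 groups (black bar). The bars lie between 0.66 and 5.12 except that of RN7SK at -1.02, and the A7 point is leftmost for every partner but RMRP.

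The other Pol III RNAs were tested across the THP-1 groups to see whether they differ in A7 as nc886 does. Of 14 listed, 13 could be tested with PNK and 12 without. BCYRN1, a neuronal Pol III RNA, had at most 3 counts in any library and RNU6ATAC at most 9 without PNK. With PNK, the edgeR quasi-likelihood F test across A7, A4, E4 and G8 called 8 of 13, beside 22.2% of 8612 features, and without PNK 5 of 12, beside 32.5% of 1792. The 8 with PNK were VTRNA1-3, RNY3, RNY4, RNY5, RN7SL1, RN7SL2, RMRP and RNU6ATAC, and the 5 without were RNY1, RNY3, RNY5, RN7SL1 and RN7SL2. Without PNK the replicate block lost RNY3 (adjusted p = 0.0508) and RN7SL2 (0.0691) in edgeR, and of 21 alternative fits 8 lost RNY3, 11 RN7SL1 and 15 RN7SL2. Some alternative fits without PNK called RNAs that the main fit did not. These were VTRNA1-1 in 2, VTRNA1-2 in 5, VTRNA1-3 in 3, RNY4 in 2, RN7SK in 5, RPPH1 in 5 and RMRP in 4. With PNK 5 lost VTRNA1-3, 6 RNY4, 1 RNY5 and 2 each RN7SL1 and RN7SL2, whose adjusted p in edgeR was 0.253 and 0.287 without A4 library 2. Calls gained with PNK were RNY1 in 5 fits, VTRNA1-2 in 2, and VTRNA1-1, RN7SK and RPPH1 in 1 each. For the contrast of A7 with the mean of A4, E4 and G8 the main edgeR fit called 1 of 13 with PNK, higher, beside 2.81% of all features, or 1.86% higher. Without PNK it called 1 of 12, lower, beside 10.3% of all features, or 6.25% higher and 4.07% lower. With the replicate number as a block, 115 features were called in place of 185. Same-numbered libraries without PNK paired A4 with E4 and A4 with G8, but A7 with none of these groups. The median log2 difference of the listed RNAs was -0.27 with PNK, against 0.01 for all features, and -0.38 without, against 0.15 for all features.

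The vault RNAs nearest in sequence gave no call in that contrast. With PNK, VTRNA1-1 differed by 0.33 (SE 0.20), VTRNA1-2 by 0.15 (SE 0.16) and VTRNA1-3 by -0.27 (SE 0.52) on the log2 scale. Without PNK the values were 0.15 (SE 0.21), -0.09 (SE 0.25) and -0.36 (SE 0.28) in the same order of genes, beside 2.16 for nc886. The lowest adjusted p among these 6 tests was 0.396 with edgeR's quasi-likelihood test. With miRNA factors and with library totals the median of all features moved by over 0.1, so these values are relative to TMM scaling. With library totals in place of TMM factors, VTRNA1-1 was higher in A7 without PNK (0.61, adjusted p = 0.0396, edgeR), in a fit whose median over all features was 0.58. Without G8 libraries 1 and 2, a choice made after seeing the data, VTRNA1-3 was called lower in A7 without PNK (-0.70, adjusted p = 0.0277, edgeR).

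Among the Y RNAs, RNY3 was higher in A7 with PNK. It stood at 2098, 1735 and 1534 CPM in A7, against 732, 732 and 913 CPM in A4, 723, 680 and 910 CPM in E4 and 1694, 1892 and 875 CPM in G8. The A7 libraries lay above all of A4 and E4 but overlapped G8, and the contrast was 0.90 (SE 0.21, adjusted p = 0.0389, edgeR). Without PNK RNY3 was at -0.71 (SE 0.44, adjusted p = 0.299, edgeR), with 1667, 1180 and 248 CPM in G8 libraries 1, 2 and 3. RNY4 was at 0.74 (SE 0.20, adjusted p = 0.0608, edgeR) with PNK, where 7 of 21 alternative fits called it higher, and at 0.28 (SE 0.22) without, where 1 did.

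RNY5 was lower in A7 without PNK, opposite to nc886. It stood at 151, 149 and 151 CPM in A7, against 556, 578 and 444 CPM in A4, 253, 239 and 235 CPM in E4 and 227, 286 and 119 CPM in G8. G8 library 3 was below the A7 libraries and all others were above them; the contrast was -0.93 (SE 0.25, adjusted p = 0.0412, edgeR). Both calls were fragile: that of RNY3 was lost in 9 of 21 alternative fits and that of RNY5 in 15 of 21, among them the replicate block (0.0591 and 0.0622) and every fit that left out 1 A7 library, at adjusted p of 0.0851 to 0.178 for RNY3 and 0.117 to 0.201 for RNY5 in edgeR. RNY1 stood at 1038 to 1255 CPM in A7 without PNK, against 2296 to 3378 CPM in A4, 1454 to 1758 CPM in E4 and 807 to 1062 CPM in G8. RNY1 and RNY5 differed among the 4 groups without PNK (adjusted p = 0.00695 and 0.00693 with edgeR) in the main and all 21 alternative fits.

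The remaining listed RNAs were not called in the A7 contrast, though some were under other settings. RPPH1 was at -0.61 (SE 0.29) with PNK and -1.13 (SE 0.34, adjusted p = 0.0558, edgeR) without, where its A7 libraries, at 26.0 to 31.6 CPM, lay below the 33.7 to 85.0 CPM of the 9 others, and 5 of 21 alternative fits called it lower. The share of all features with A7 below the 9 others was not computed. RMRP was at -1.09 (SE 0.34) with PNK and -0.38 (SE 0.19) without, and was called lower in 5 and 4 of 21 alternative fits of those arms. RN7SK was at 0.22 (SE 0.20) with PNK and -0.05 (SE 0.31) without. RN7SL1 and RN7SL2, near-identical copies of the signal recognition particle RNA that share reads, were each at -0.71 with PNK, and without PNK 2 and 3 of 21 alternative fits called them lower. With PNK A4 library 2 held 1022 and 976 CPM against at most 129 in every other library. RNU6ATAC, of the minor spliceosome, was at -1.21 (SE 0.45) with PNK, called lower in 1 of 21. Across the 4 groups with PNK, RNY3, RMRP and RNU6ATAC were called in the main and all 21 alternative fits, with adjusted p of 0.00806, 0.00416 and 0.00797 in edgeR.

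**Figure D5:**
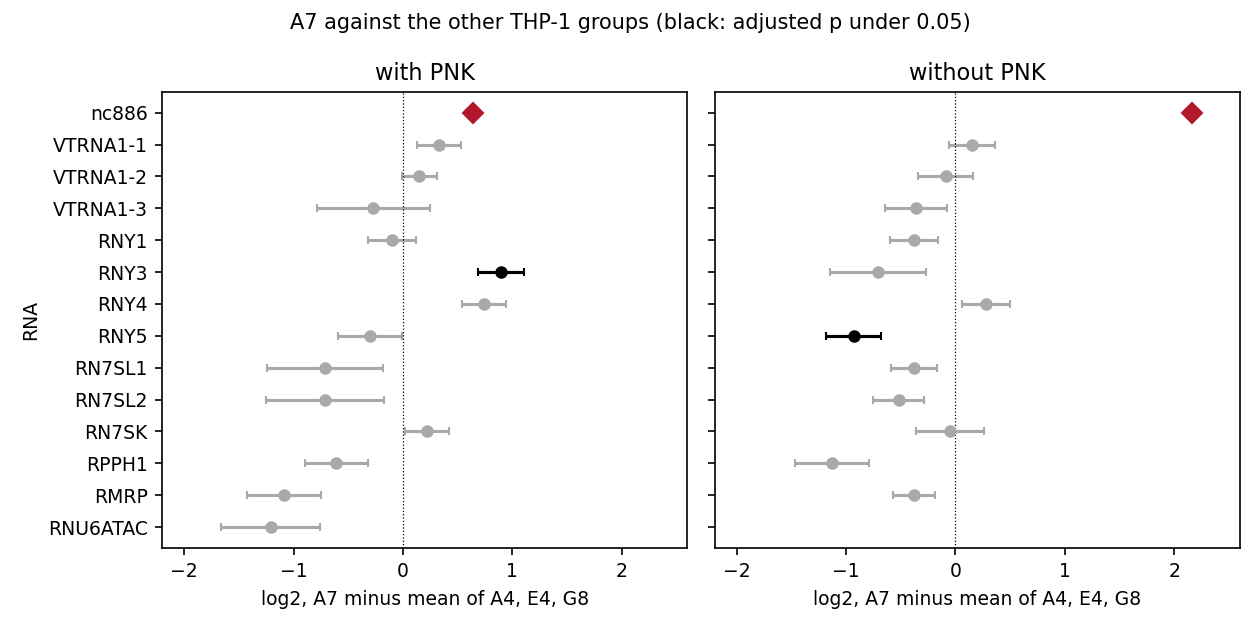
Log2 difference of A7 from the mean of A4, E4 and G8 for nc886 (red diamond, a description with no test) and for the other listed Pol III RNAs (circles with standard error, black where the adjusted p of edgeR is under 0.05 and grey otherwise), with PNK on the left and without on the right. nc886 lies at 0.64 with PNK and 2.16 without, and no other listed RNA exceeds 0.90 or 0.28.

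Set against the libraries labelled mock, few of these RNAs were called in A7. With PNK 1 of 13 was called, higher, beside 4.94% of 9228 features, or 3.19% higher and 1.76% lower: RNY5, at 687, 462 and 386 CPM in A7 and 216, 208 and 202 CPM in the libraries labelled mock (log2 1.29, SE 0.33, adjusted p = 0.0320, edgeR). That call was lost in 7 of 24 alternative fits, among them miRNA factors (log2 0.20). Without PNK none of the 12 was called, beside 0.38% of 1842 features, or 7 features. In that fit 204 features had an unadjusted p under 0.05, and DESeq2 in its place called 40. RNY5 was at -0.97 (SE 0.31) in the main fit without PNK, opposite in sign to its value with PNK. Of 24 alternative fits, 4 called it lower, DESeq2 among them (-0.96, adjusted p = 0.0176). With the replicate number as a block, edgeR called 0 features. That block was common to all groups of the fit, and it suits only some of them. Same-numbered libraries of A7 and mock deviated together (r of 0.15 to 0.49). Those of A4 and mock deviated in opposite ways (-0.77 to -0.41), as did those of E4 and mock (-0.67 to -0.30) and of G8 and mock (-0.45 to -0.20). The block is thus not a paired test of A7 and mock alone. VTRNA1-1 was at 0.54 (SE 0.30) with PNK and 0.27 (SE 0.25) without, beside 0.52 for nc886 in each arm. The values of nc886 for A4, E4 and G8 against these libraries rest on the same mock libraries and are not independent of one another.

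The features whose pattern was most like that of nc886 were tRNAs. Likeness was Pearson's r of log2 CPM over the 12 THP-1 libraries without PNK, among 921 features at or above the median level. The 5 highest, rows of the same name counted once, were TRD-GTC3-1 (r = 0.95), TRG-GCC2-1 (0.94), TRD-GTC2-5 (0.93), TRG-GCC3-1 (0.90) and TRC-GCA2-1 (0.89), tRNAs for aspartate, glycine and cysteine, beside a 95th percentile of 0.71. The named glycine tRNAs share the anticodon GCC and the aspartate tRNAs the anticodon GTC, so these are not 5 separate cases. The 25 highest rows were all tRNA, which makes up 27.4% of the 921, but copies share reads and are not 25 separate cases. Over the 9 libraries of A4, E4 and G8 alone r was 0.66, 0.88, 0.60, 0.82 and 0.85 in the same order of genes, each for its most alike copy. The 9 other listed copies of TRD-GTC2-5 gave -0.11 to 0.41 there. The 12 libraries share the arm, the scaling and the split of libraries described above, so r describes these libraries only.

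These tRNAs were higher in A7 without PNK by a smaller factor than nc886. TRD-GTC3-1 averaged 40.8 CPM in A7 (31.3 to 55.3), against 17.9 in A4 (16.5 to 19.2), 18.3 in E4 (17.5 to 19.3) and 22.5 in G8 (20.8 to 25.7). The libraries labelled mock averaged 54.3 CPM (34.4 to 81.1), so A7 and mock again lay above the 9 others for this tRNA. TRG-GCC2-1 averaged 333 CPM in A7 (213 to 458), while A4 averaged 173, E4 147 and G8 202 (168 to 235), and A7 overlapped G8. Its mean in the libraries labelled mock was 559 CPM (241 to 1030). With PNK r was lower, at 0.30, -0.06, 0.25, -0.13 and -0.03 for the 5 tRNAs as listed above, each for the copy most alike without PNK. The other listed copies of TRD-GTC2-5 gave 0.25 to 0.54 with PNK, and the 25 highest rows ran from -0.58 to 0.75. No background of r over all features was computed with PNK.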

How the data were processed

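The authors deposited 1 table of unnormalized read counts, whole numbers with unequal column sums. Per the submitters' processing notes, reads were handled with Trim Galore, FastQC, Bowtie2 2.3.5.1, SAMtools 1.9, bedtools 2.28.0 and deepTools 3.2.1 on GRCh38. Per the labels' protocols, the RNA came from a mirVana PARIS extraction, was treated with Antarctic phosphatase and polynucleotide kinase or not, and was made into NEBNext small RNA libraries; that extraction is described for THP-1. The sources used here do not give how reads with several alignments, or strand, were counted.

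From the 175946 rows a non-overlapping set of 85650 was taken, RNAs of up to 400 bases first. Groups follow the labels (10 groups of 3). Counts were tested with edgeR 4.0.16 (R 4.3.3; TMM, filterByExpr, quasi-likelihood, Benjamini-Hochberg threshold 0.05), in each arm alone, over 12 THP-1 libraries or, for A7 minus mock, over 15. Kept counts per library ran from 5545463 to 13270626, and intervals cover counting error only. log2 CPM uses a prior count of 2. Ratios add 0.5 to each count. A permutation test of these ratios was planned, but its p-values are not given, because nc886 was chosen on the same counts. Sequences were aligned with Biopython 1.88. The tests over the 12 THP-1 libraries were run on simulated counts with independent libraries. Those counts held neither the split of G8 nor the shift of library 3, so the check does not cover them. The A7 minus mock fit was not simulated. The members and lists were chosen with earlier results of these data known. Named are nc886, the 14 listed Pol III RNAs, the 5 features most like nc886 and its neighbours. DESeq2 1.42.0, other scalings, filters, rows, left-out libraries and a replicate block were alternatives. Replicate numbers paired A7 and mock without PNK, where residuals of same-numbered libraries correlated at 0.15 to 0.49, over the threshold of 0.1 in all 3 pairs. They also paired A4 with E4 and A4 with G8 there, and the arms of A4, E4 and G8, but no groups with PNK. Without PNK the residuals of mock ran opposite to those of A4, E4 and G8 (-0.77 to -0.20), so a common block does not suit all groups.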

Additional observations from a re-analysis of the deposited data

Results flagged for a closer look

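The log2 ratio of nc886 to RPPH1, with PNK minus without, moved one way in every same-numbered pair of A7 and the opposite way in every pair of A4, of E4 and of G8. It averaged -0.70 in A7, while A4 averaged 1.24, E4 2.11 and G8 0.83. The libraries labelled mock averaged -0.15, with pairs of both signs. Their ratios were 166, 40.8 and 34.2 with PNK and 149, 62.3 and 33.9 without. A7 minus A4 was thus -1.94, A7 minus E4 -2.81 and A7 minus G8 -1.52. These differences were not tested. Pairs of A7 and of mock are matched by number alone, since their arms did not deviate together in all 3 pairs. The share of RPPH1 itself with PNK over that without was 13.1 ± 0.825 in A7, 9.83 ± 0.737 in A4, 9.26 ± 1.15 in E4 and 14.5 ± 2.15 in G8 (SD, n = 3 pairs).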

How the results depend on the processing

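Without PNK, nc886 A7 minus the mean of A4, E4 and G8 kept its direction in 8 alternatives (1.55 with miRNA factors to 2.66 with library totals) and without any 1 of 12 libraries (1.85 to 2.39); with PNK the alternatives gave 0.13 with miRNA factors to 0.85 without G8 libraries 1 and 2, and single libraries 0.48 to 0.81. nc886 A7 minus mock was 0.21 to 0.85 without PNK and 0.20 to 1.06 with PNK when single libraries were left out, but with PNK turned to -0.52 with miRNA factors and -0.10 as a ratio to VTRNA1-1. Other nc886 differences that turned were, with PNK, A7 minus G8 (-0.48) and E4 minus G8 (-0.75) with miRNA factors; A4 minus G8 without G8 libraries 1 and 2 (0.63), as a ratio to VTRNA1-1 (0.49) and without A4 library 1 (0.03) or 2 (0.11) or G8 library 1 (0.11) or 2 (0.18), over a range of -0.34 to 0.18; E4 minus mock with library totals (-0.11), miRNA factors (-0.79), the ratio to VTRNA1-1 (-0.20), without number 3 of every group (-0.20) or without mock library 3 (range -0.10 to 0.76); A4 minus mock without mock library 1 (range -0.62 to 0.24); and G8 minus mock without mock library 1 (0.26) or G8 library 3 (0.04), over a range of -0.60 to 0.26. Without PNK they were A4 minus E4 as a ratio to VTRNA1-1 (-0.05), A4 minus G8 with library totals (0.01) or without G8 libraries 1 and 2 (0.19), E4 minus G8 without those (0.02) and G8 minus mock with miRNA factors (0.22). The cause was not tested.

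The scaling moved all features: with miRNA factors the median of A7 minus the mean shifted by -0.73 without PNK and -0.53 with PNK, and that of A7 minus mock with PNK by -1.03; library totals shifted them by 0.43, 0.17 and -0.23. Higher and lower calls were 160 and 82 for A7 minus the mean with PNK (238 and 30 with library totals, 19 and 698 with miRNA factors), 294 and 162 for A7 minus mock with PNK (105 and 171, 34 and 4832), and 112 and 73 for A7 minus the mean without PNK (318 and 50 with library totals, 84 and 81 with DESeq2 factors). Features differing among A4, A7, E4 and G8 without PNK (582) numbered 1004 with miRNA factors, 1845 with every row, 922 with DESeq2, 1408 without number 3 of every group and 244 to 1306 without single libraries. A7 minus the mean without PNK (185) gave 368 with library totals, 0 with miRNA factors, 311 with every row, 386 with DESeq2, 115 with the replicate block, 1062 without number 3 and 1 to 970 without single libraries. A7 minus mock without PNK (7) gave 0 with library totals, 3 with every row, 40 with DESeq2, 0 with the replicate block, 92 without G8 libraries 1 and 2, 137 without number 3 and 0 to 95 without single libraries. With PNK the test across groups (1908) gave 6159 with miRNA factors, 11650 with every row and 1484 to 2496 without single libraries. A7 minus the mean with PNK (242) gave 717 with miRNA factors, 508 with no filter, 3254 with every row, 403 without number 3 and 43 to 625 without single libraries. A7 minus mock with PNK (456) gave 276 with library totals, 4866 with miRNA factors, 3377 with every row, 148 without number 3 and 149 to 593 without single libraries.

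The shift of the nc886 to RPPH1 ratio was 0.66, also with the replicate block, 1.01 without A7, 0.87 without mock and 0.52 to 0.78 without single libraries. The other partners kept their direction, at 1.8 to 1.9 for VTRNA1-1, 2.44 to 2.58 for VTRNA1-2, 4.97 to 5.35 for VTRNA1-3, 3.69 to 3.98 for RNY1, 2.32 to 2.52 for RNY3, 2.99 to 3.16 for RNY4, 3.23 to 3.42 for RNY5, -1.13 to -0.95 for RN7SK and 4.64 to 4.88 for RMRP without single libraries. "Without number 3", "without G8 libraries 1 and 2" and the ratio to VTRNA1-1 were added after seeing the data.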
